A study of Homo sapiens with 12 samples.

Results

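SNU638 is an established human gastric cancer cell line, and the 3 libraries described here were made from its control line. That line carried a control short hairpin RNA (a lentiviral RNA hairpin that serves as the comparison for hairpins against a gene), and its genotype was labelled wt. The libraries were chosen by their labels alone, and they were 3 of 12 libraries in the series. The other 9 came from SNU638 lines that carried hairpins 1, 2 or 3 against SKA2. They are used here only for the SKA2 level that checks the labels. All lines were made with packaged lentivirus and kept under puromycin, so the control line had also been through infection and selection, and its levels are those of a selected line and not of untouched cells. The labels do not say whether the control libraries came from separate cultures, and the spread between them may be technical.

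Messenger RNA with a poly(A) tail was enriched, fragmented and sequenced. The control libraries held 16058725, 16163336 and 16739155 expected counts over 17303 genes. Levels are given as TPM, the abundance of a gene's transcripts scaled to transcript length and to the same total in each library, so levels of different genes can be set side by side. Each set of 3 TPM values below is given in the order library 1, library 2, library 3. A gene was called expressed when it reached 1 TPM in each of the 3 libraries. This held for 11316 of 17303 genes, which is 65.4%. Every count of expressed list members below is to be read beside this share. The median gene had a mean of 7.43 TPM, and the median expressed gene had 19.8 TPM. The mean was at least 10 TPM for 7860 genes, at least 100 TPM for 1485 genes and at least 1000 TPM for 133 genes, while 1443 genes were listed at 0 in all 3 libraries. A count of 3 in a library, the limit that a count of 0 allows, was 0.187, 0.186 and 0.179 CPM (counts scaled to the library total), and this covers counting error only.

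The gastric epithelium is a single layer of cells that are held together by E-cadherin, keratins and tight junctions, and its mature cells secrete mucins, trefoil factors, pepsinogens and acid. Gastric carcinomas arise from this layer and lose these products to varying degrees, while growth factor receptors such as those of the ERBB and MET families are known as drivers and drug targets in this cancer. Cells in culture also run programmes for amino acid shortage, misfolded proteins, oxidants and metals, and these programmes have well known marker genes. The gene lists below cover lineage, receptors, stress and metabolism.

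Library 1 stood apart from the other two. The counts of libraries 2 and 3 differed with a chi-square of 6.50 per degree of freedom over 12966 genes, against 24.2 for libraries 1 and 2 and 49.7 for libraries 1 and 3. A value near 1 would mean sampling noise only, so none of the pairs was a repeat deposit of a single library. Pearson's r of log2(TPM + 1), computed across 11575 genes that are not independent replicates, was 0.996 for libraries 2 and 3, 0.990 for libraries 1 and 2, and 0.981 for libraries 1 and 3. Of the 11575 genes with a mean of at least 1 TPM, 3868 (33.4%) had a highest library at least 1.5 times the lowest, and in 3661 of these the highest was library 1. The common biological coefficient of variation, the spread between libraries beyond counting error, was 0.148 over the 3 libraries and 0.0692 without library 1. Without library 1 the number of genes past 1.5 times fell to 288.

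The difference between the libraries ran with gene length. Genes were split into 5 bins of equal size by effective length. In the shortest bin, with a median length of 956 bases, the median log2 ratio of library 1 to the mean of the 3 was -0.06, and in the longest bin, with a median of 6253 bases, it was 0.40. Library 3 moved the other way, from 0.04 to -0.38, and library 2 lay between them, from 0.01 to -0.14. The share of genes past 1.5 times rose with each bin, from 7.95% to 10.6%, 23.8%, 47.4% and 72.5%. Many long genes, such as MET and EGFR, were highest in library 1, while short genes such as the metallothioneins and ribosomal protein genes were mostly lowest there. The part that length has in any single gene's spread was not tested. Where the text calls a gene higher than another, it means that the ranges over the 3 libraries do not overlap. Of 48 gene families compared, the highest member was the same without library 1 in 48 and without library 3 in 47.

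**Figure D1:**
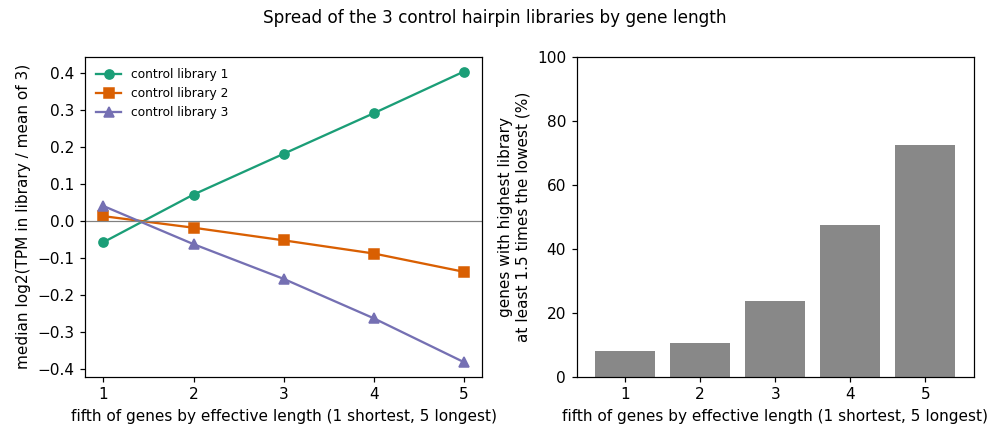
Left, the median log2 ratio of TPM in each control library to the mean of the 3 libraries, for 5 equal bins of genes from the shortest to the longest effective length; right, the percentage of genes in each bin whose highest library was at least 1.5 times the lowest. Library 1 rises from -0.06 to 0.40 and library 3 falls from 0.04 to -0.38, and the share past 1.5 times rises from 7.95% to 72.5%.

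The targeted gene of the series gives a check of the labels. SKA2, a subunit of the complex that holds chromosomes to spindle microtubules, was at 81.5, 65.2 and 59.5 TPM in the control libraries, and the other 9 libraries of the series held 16.3 to 21.6 TPM. All 3 control values lay above all 9 others. Its partner subunits were lower, with SKA3 at 55.5, 46.2 and 42.3 TPM and SKA1 at 49.4, 44.2 and 39.2 TPM.

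The most abundant messenger RNAs of SNU638 were those of protein synthesis, with a metallothionein among them. The 100 highest genes held 36.6%, 40.3% and 41.8% of all TPM, a mean of 39.6% ± 2.67 (SD, n = 3). By counts, which favour long transcripts, the 100 genes with most counts held 20.4%. Of the 100 highest genes 58 were among the 84 ribosomal protein genes, and of the top 20 there were 16. Ribosomal protein genes held 25.9%, 29.2% and 30.5% of TPM. The highest gene by mean TPM was MT2A, which encodes a small cysteine-rich protein that binds zinc and copper, at 8584, 10828 and 11872 TPM. It was followed by EEF1A1, the translation elongation factor that brings aminoacyl-tRNA to the ribosome, at 11036, 10009 and 9962 TPM, and by RPS18 at 8753, 9603 and 9839.8 TPM, RPS2 at 8351, 9418 and 9239 TPM and RPS29 at 8376, 9227 and 9283 TPM, which are subunits of the small ribosomal particle. The ranges of MT2A and EEF1A1 overlapped, so their order is not resolved: MT2A was below EEF1A1 in library 1 and above it in libraries 2 and 3. TMSB10, a protein that binds actin monomers, was at 6552, 8089 and 8805 TPM, and EEF1G, a further elongation factor, was at 5331, 5810 and 5964 TPM. The rest of the top 20 were ribosomal protein genes, among them RPL41, RPS25, RPLP2, RPL27, RPL39, RPLP0, RPL35, RPL13A, RPS24, RPS12 and RPS27. The mean levels of those named ran from 6788 TPM for RPL41 to 5796 TPM for RPS27. Many of these genes have processed copies elsewhere in the genome, which could take or give reads in the authors' counting, so single values are uncertain.

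Metallothioneins bind zinc and other metals, and they are switched on through metal response elements in their promoters, which the zinc-sensing factor MTF1 binds. The promoters of MT2A, MT1X and MT4 are shown. MT2A had the highest mean TPM, although its order against EEF1A1 is not resolved, while MT4 was listed at 0. The sequences are RefSeq promoters of GRCh38.p14, on the plus strand of chromosome 16 from 250 bases before the start to 50 after it. Capitals mark the letters TGCACNC or TGCGCNC, the core of a metal response element, on either strand. Where a match lies on the minus strand, the capitals show its reverse complement.
MT2A: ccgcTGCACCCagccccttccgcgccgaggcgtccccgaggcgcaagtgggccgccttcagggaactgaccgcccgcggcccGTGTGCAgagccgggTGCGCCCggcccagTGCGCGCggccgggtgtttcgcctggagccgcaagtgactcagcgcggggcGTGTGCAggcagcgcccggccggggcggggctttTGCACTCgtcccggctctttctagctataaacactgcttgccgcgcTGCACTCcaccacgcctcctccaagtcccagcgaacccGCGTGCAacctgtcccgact
MT1X: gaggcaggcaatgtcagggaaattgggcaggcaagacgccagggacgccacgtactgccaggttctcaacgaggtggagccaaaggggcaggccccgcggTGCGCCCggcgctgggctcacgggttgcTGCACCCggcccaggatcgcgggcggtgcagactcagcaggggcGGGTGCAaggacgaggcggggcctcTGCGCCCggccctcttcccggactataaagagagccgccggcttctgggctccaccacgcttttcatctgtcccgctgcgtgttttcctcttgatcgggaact
MT4: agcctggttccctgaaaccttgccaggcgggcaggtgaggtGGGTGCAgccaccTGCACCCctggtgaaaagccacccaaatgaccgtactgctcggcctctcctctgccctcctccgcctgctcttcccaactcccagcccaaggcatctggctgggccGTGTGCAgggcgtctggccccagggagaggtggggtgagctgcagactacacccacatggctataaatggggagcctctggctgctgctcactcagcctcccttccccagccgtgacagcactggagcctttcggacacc
The MT2A window (chr16:56608334-56608633) held 8 matches, the MT1X window (chr16:56682220-56682519) held 4, and the MT4 window (chr16:56564823-56565122) held 3. No other motif was searched. Of 35116 promoters of the same length, 29.6% held at least 1 match, 0.601% held at least 4 and 0.0199% held at least 8. A match is a run of letters and not a shown binding site. The promoters of MT1E, MT1F, MT1M and MT1G were not examined, so matches cannot be set against levels across the family. Whether the number of matches goes with the level was not tested.

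The metallothioneins themselves spanned a wide range. MT1E was at 2817, 3052 and 3335 TPM and ranked 59 by mean TPM, and MT1X was at 222, 277 and 314 TPM. MT1F at 12.2, 10.01 and 16.5 TPM, MT1M at 5.72, 14 and 12.2 TPM and MT1G at 5.28, 6.46 and 5.34 TPM were far lower, and MT4 was listed at 0 in each library. MT1E lies on chromosome 16 from 56625475 to 56627112, between MT2A (56608199 to 56609497) and MT1X (56682424 to 56684196), all on the plus strand (GRCh38, GENCODE v29). Their coding sequences are much alike, so reads could be split between them and the level of each is uncertain. MTF1 was at 9.91, 6.61 and 5.15 TPM, and SLC30A1, a zinc exporter that MTF1 also controls, was at 16.9, 10.8 and 9.15 TPM. MT2A and MT1X were lowest in library 1 and highest in library 3, whereas MTF1 and SLC30A1 were highest in library 1.

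Some genes outside protein synthesis also ranked high. GAPDH, the glycolytic dehydrogenase, ranked 21 at 5264, 5663 and 5986 TPM, and ENO1, the enolase of most tissues, ranked 66 at 2618, 2676 and 2829.7 TPM. HMGA1, a chromatin protein abundant in embryos and tumours, was at 1859.6, 1936 and 1959.6 TPM. FOSL1, the FRA1 subunit of the transcription factor AP-1, was at 1015, 1010.2 and 1017 TPM, the highest of the 23 immediate-early genes, with a coefficient of variation of 0.36%.

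Keratins of simple epithelium and EPCAM were abundant in these cells, while E-cadherin and most products of the stomach were low or at 0. Of the keratin and adhesion list 30 of 45 genes were expressed, a share near the 65.4% of all genes, and 8 had a mean of at least 100 TPM. KRT23, a type I keratin, was the highest at 2586, 2632 and 2536 TPM and ranked 70 among all genes. The simple-epithelium pair KRT18 and KRT8, which form filaments together, followed at 1339, 1463 and 1520.3 TPM and 1184, 1245 and 1312 TPM. The ranges of KRT18 and KRT8 did not overlap, with KRT18 higher in each library, and KRT19 at 419, 499.6 and 528 TPM and KRT7 at 172, 191 and 202 TPM were lower again. KRT20, a keratin of intestinal and foveolar gastric cells, was at 11.02, 10.3 and 9.37 TPM, and KRT5, a keratin of squamous epithelium, was listed at 0. The adhesion molecule EPCAM was at 308, 291 and 279.7 TPM, the serine protease inhibitor SPINT2 at 290, 290.4 and 287 TPM, and the tight junction protein CLDN7 at 118, 118 and 119.5 TPM.

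CDH1, the gene of E-cadherin on chromosome 16 (68737225 to 68835548), was at 1.69, 1.36 and 1.32 TPM with 74, 68 and 72 expected counts. This was low beside its partners in the adherens junction, since CTNNA1 (alpha-catenin) was at 238, 217 and 208 TPM, CTNNB1 (beta-catenin) at 165, 109 and 80.6 TPM and JUP (plakoglobin) at 54.2, 53.01 and 55.02 TPM. P-cadherin, CDH3, was higher than CDH1 in each library, at 14.2, 10.8 and 11 TPM, and N-cadherin, CDH2, was listed at 0. In bulk RNA a level is an average over cells, so a low level in all cells and a higher level in a few cells cannot be told apart. The desmosome genes DSP at 43.2, 26.3 and 21.5 TPM and DSG2 at 46.1, 22.4 and 15.7 TPM were highest in library 1, and the highest library of DSG2 was 2.93 times its lowest. ESRP1 and ESRP2, the splicing regulators of epithelial cells, were at 41.3, 30.2 and 24.7 TPM and 31.1, 24.8 and 21.4 TPM.

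**Figure D2:**
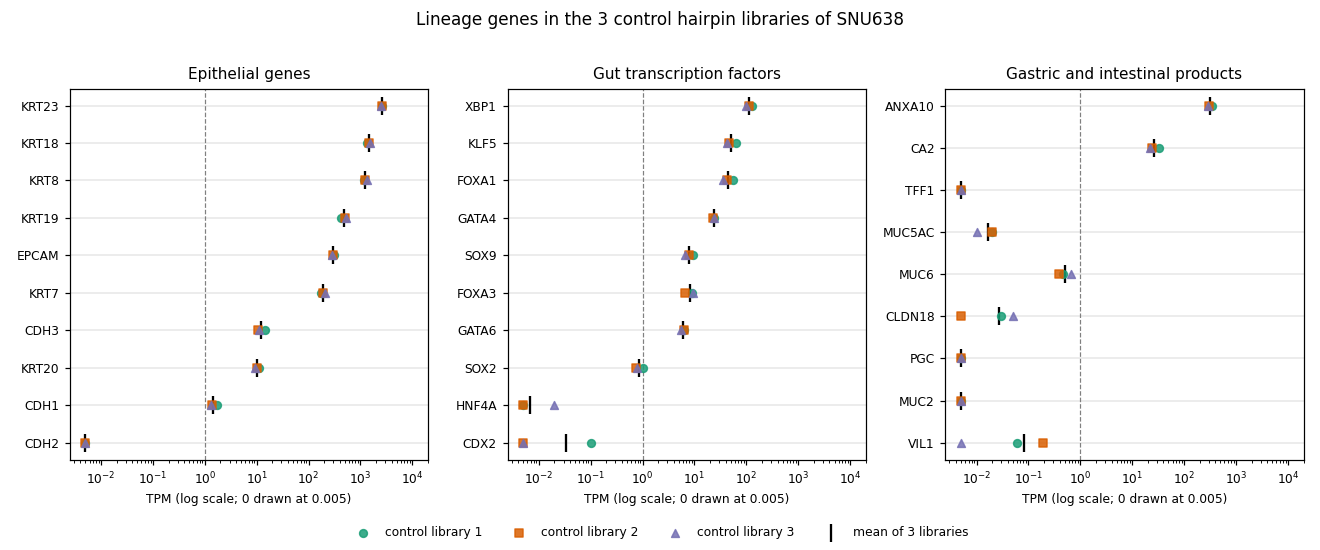
TPM of named lineage genes on a log axis in control libraries 1 (circle), 2 (square) and 3 (triangle), with the mean as a vertical bar, values listed at 0 drawn at 0.005 and a dashed line at 1 TPM. KRT23, KRT18 and KRT8 lie above 1000 TPM while CDH1 lies just above 1 TPM. In the panel of gastric and intestinal products only ANXA10 and CA2 exceed 1 TPM.

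The label gastric cancer cell was set against the products of the stomach. Only 2 of 19 measured gastric products were expressed, and 7 were listed at 0 in all 3 libraries. ANXA10, an annexin characteristic of gastric epithelium on chromosome 4 (168092515 to 168187690), was the exception at 350.2, 309 and 285 TPM, and the membrane mucin MUC1 was at 2.09, 1.72 and 2.99 TPM. The surface mucin MUC5AC was at 0.02, 0.02 and 0.01 TPM, the gland mucin MUC6 at 0.46, 0.38 and 0.65 TPM, and the gastric tight junction gene CLDN18 at 0.03, 0 and 0.05 TPM. The trefoil factor TFF1, pepsinogen genes PGC, PGA3 and PGA5, the gastric lipase LIPF, intrinsic factor CBLIF and the proton pump subunit ATP4A were listed at 0. Among these markers ANXA10 and MUC1 alone passed 1 TPM in each library. MUC5AC, TFF1 and the pepsinogen, lipase, intrinsic factor and proton pump genes named here were at or near 0. KRT20, named above as a keratin also of foveolar cells, was expressed.

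Intestinal products were as sparse, with 3 of 30 expressed. They were the cytosolic carbonic anhydrase CA2 at 32.8, 24.4 and 22.4 TPM, KRT20, and the ileal bile acid binding protein FABP6 at 7.3, 11.4 and 7.26 TPM. The goblet cell mucin MUC2, the stem cell gene OLFM4 and the fatty acid binding protein FABP1 were listed at 0, and VIL1, which bundles actin in the brush border, was at 0.06, 0.19 and 0 TPM. LGR5, a receptor that marks gut stem cells, was at 0.03, 0.04 and 0.02 TPM, and CDH17, an intestinal cadherin, at 0.03, 0 and 0 TPM.

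The transcription factors that set gut identity were partly present. Of the list 18 of 37 were expressed, with a median of 0.98 TPM. XBP1, which drives secretory capacity, was the highest at 130.5, 115 and 97.6 TPM. KLF5, a factor of proliferating gut epithelium, was at 63.7, 46.9 and 42.9 TPM, and the pioneer factor FOXA1 was at 55.2, 41.97 and 36.1 TPM. GATA4, a gut endoderm factor on chromosome 8 (11676959 to 11760002), was at 24.1, 23.1 and 23.7 TPM, and its values differed little between the libraries, with a coefficient of variation of 2.17%. It was higher than GATA6 at 6.23, 6.34 and 5.38 TPM in each library, and GATA5 was listed at 0. SOX9 at 9.51, 7.97 and 6.44 TPM and FOXA3 at 9.09, 6.67 and 9.34 TPM had overlapping ranges. The endoderm factor FOXA2 at 4.64, 4.42 and 4.07 TPM and the epithelial factor ELF3 at 4.99, 4.98 and 4.19 TPM overlapped too. The gastric factor SOX2 was at 1.02, 0.76 and 0.77 TPM, and the intestinal master factor CDX2 was at 0.1, 0 and 0 TPM. HNF4A, the hepatocyte and gut nuclear receptor, was at 0, 0 and 0.02 TPM, while its relative HNF4G was at 2.98, 2.02 and 1.12 TPM.

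Mesenchymal genes were present in part. Of the list 10 of 27 were expressed, beside 65.4% of all genes. The receptor AXL was the highest, and CAV1 (caveolin) was at 43.2, 32.5 and 30.6 TPM. VIM, the intermediate filament of mesenchymal cells, was at 13.3, 12.5 and 12.8 TPM, and the repressor of E-cadherin ZEB1 was at 4.51, 2.64 and 2.02 TPM, with SNAI1 at 4.66, 4.6 and 5.47 TPM. ACTA2 at 26.3, 30.9 and 27.6 TPM and TAGLN at 14.97, 17.8 and 18.9 TPM, smooth-muscle cytoskeletal genes, were also expressed. Fibronectin, FN1, was at 0.35, 0.17 and 0.16 TPM, ZEB2 at 0.02, 0.05 and 0.01 TPM, and CDH11 was listed at 0.

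Of the neuroendocrine list 3 of 16 were expressed, namely the neuronal enolase ENO2 at 80.5, 76.7 and 69.3 TPM, the syntaxin STX1A at 58.7, 59.2 and 57.6 TPM and TPH1, which makes serotonin, at 2.12, 1.58 and 1.23 TPM. The defining members CHGA (chromogranin A), INSM1 and NCAM1 were listed at 0, and SYP (synaptophysin) was at 1.02, 0.8 and 0.58 TPM. Fetal and tumour genes were led by HMGA1, with its relative HMGA2 at 68.4, 57.2 and 55.7 TPM and the RNA-binding proteins IGF2BP2 at 34.9, 23.5 and 20.6 TPM and IGF2BP3 at 42.6, 19.5 and 12.5 TPM. The highest library of IGF2BP3 was 3.42 times its lowest. Among cancer-testis genes 7 of 26 were expressed, of which KIF2C at 143, 132 and 127 TPM, PBK at 97.9, 82 and 68.1 TPM, CEP55 at 82.9, 67.6 and 62.9 TPM and TTK at 46.1, 32.9 and 27.6 TPM are genes of mitosis, and ATAD2, a chromatin ATPase, was at 50.04, 30.7 and 22.97 TPM. The more restricted antigens were CT83 at 40.02, 35.2 and 26.04 TPM and PRAME at 17.3, 16.7 and 16.2 TPM, and no measured MAGE gene reached 1 TPM in any library.

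Markers of other cell types were at or near 0, with a few exceptions. Of white blood cell markers 3 of 16 passed 1 TPM, led by the lysosomal CD68 at 25.7, 23.9 and 24.4 TPM and by the B cell receptor chain CD79A at 8.86, 8.34 and 8.15 TPM, with CD8A at 1.99, 1.33 and 1.4 TPM. PTPRC, the pan-leukocyte CD45, was at 0, 0 and 0.02 TPM, and CD3E, CD3D and CSF1R were listed at 0. The summed level of the list was 38.4, 34.5 and 35.5 TPM. Of endothelial markers 1 of 13 passed, which was the junction protein ESAM at 12.1, 11.4 and 11.3 TPM, while VWF and KDR were listed at 0 and PECAM1 was at 0, 0.05 and 0.01 TPM, with a sum of 13.7, 13.2 and 12.2 TPM. Of fibroblast markers 1 of 11 passed, COL1A1 at 2.01, 2.17 and 1.91 TPM, while COL1A2 and DCN were listed at 0, with a sum of 2.3, 2.45 and 2.07 TPM. Of red cell and muscle markers 2 of 12 passed, the globins HBA1 at 3.83, 3.3 and 6.32 TPM and HBG2 at 1.88, 2.62 and 2.94 TPM, with a sum of 7.04, 6.56 and 10.1 TPM; HBA1 and HBA2 are near-identical copies, and their split is uncertain.

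The growth factor receptors of SNU638 were led by MET, AXL and EGFR. Of 56 measured receptor tyrosine kinases 27 were expressed, beside 65.4% of all genes. The mean was at least 100 TPM for 3 of them, and 9 of the 56 were listed at 0 in all libraries. MET, the receptor of hepatocyte growth factor, was the highest at 405, 269.6 and 229 TPM, a mean of 301 ± 92.2 (SD, n = 3) and 249 TPM over libraries 2 and 3 alone. Its gene spans 116672390 to 116798386 of chromosome 7, plus strand. AXL, the receptor of GAS6, was at 274, 218 and 197 TPM, and EGFR at 179.6, 103 and 81.04 TPM, a mean of 121 ± 51.8. MET exceeded AXL in each library, but their ranges over the 3 libraries overlapped, since AXL in library 1 was above MET in libraries 2 and 3. Both were higher than EGFR, whose range overlapped with neither. Over libraries 2 and 3 the means of AXL and EGFR were 208 and 91.8 TPM. ERBB2, the target of trastuzumab in gastric cancer, was at 54.5, 54.5 and 51.5 TPM and varied little, with a coefficient of variation of 3.23%.

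A middle group of receptors followed. The ephrin receptors EPHA2 at 51.2, 42.6 and 44.01 TPM, EPHB4 at 39.8, 37.7 and 36.96 TPM and EPHB2 at 22.4, 18.8 and 19.4 TPM were expressed, and EPHA4 was at 15.1, 9.71 and 7.74 TPM. LTK, a relative of ALK, was at 35.2, 33.8 and 36.1 TPM, and ALK itself was at 0.03, 0 and 0 TPM. DDR1, a collagen receptor of epithelium, was at 37.3, 28.9 and 26.1 TPM, and the WNT co-receptors RYK and PTK7 were at 33.8, 23.5 and 18.1 TPM and 26.1, 22.7 and 22.5 TPM. ERBB3, the kinase-poor partner of ERBB2, was at 16.2, 11.6 and 10.4 TPM, and ERBB4 was at 0.05, 0.02 and 0.01 TPM. MST1R, the relative of MET known as RON, was at 15.6, 11.7 and 10.8 TPM.

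The lower receptors were FGFR4 at 10.1, 9.73 and 10.1 TPM, TYRO3 at 11.9, 8.38 and 7.09 TPM, LMTK2 at 12.4, 7.49 and 6.18 TPM, INSR at 8.92, 6.01 and 5.21 TPM, MERTK at 6.69, 5.19 and 4.89 TPM and IGF1R at 7.07, 4.56 and 3.77 TPM. INSR and IGF1R bind insulin and its growth factor relatives, and each was highest in library 1. EPHB6, EPHA1, EPHA10, LMTK3, FGFR3, STYK1 and AATK had means of 4.99, 4.86, 3.13, 2.52, 2.37, 2.07 and 1.39 TPM in that order. FGFR2, which is amplified in some gastric cancers, was at 0.91, 0.63 and 1.11 TPM, and the vascular receptor KDR, the neurotrophin receptor NTRK3 and RET were listed at 0. Among the 27 expressed receptors 14 had a mean of at least 10 TPM. The count of this list past 1.5 times between libraries was 10 of 27 with a mean of at least 1 TPM, beside 33.4% of all such genes, and 24 of the 27 were highest in library 1, beside 72.1% of all such genes.

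**Figure D3:**
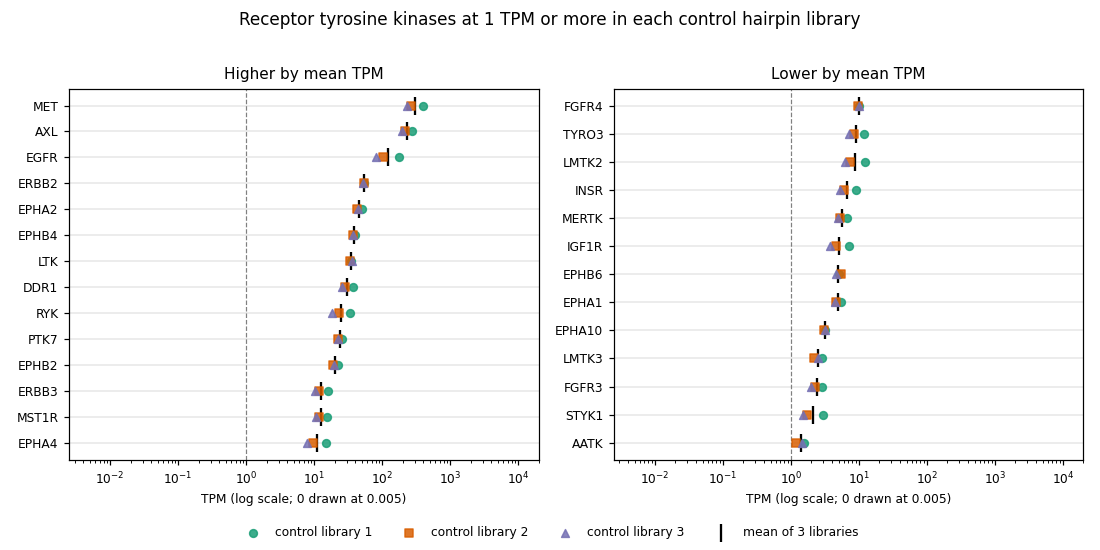
TPM of the 27 receptor tyrosine kinases that reached 1 TPM in each control library, ordered by mean, on a log axis with libraries 1 to 3 as circle, square and triangle and the mean as a vertical bar. MET, AXL and EGFR are the 3 receptors above 100 TPM on average, and library 1 holds the highest value for 24 of the 27.

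Messenger RNA of some ligands of these receptors was present in the same cells. Of 58 measured ligand genes 29 were expressed, beside 65.4% of all genes. MDK, the heparin-binding growth factor midkine, was the highest at 457, 535 and 555 TPM. The EGFR ligands amphiregulin, AREG, at 285, 245 and 243 TPM and epiregulin, EREG, at 215, 140.4 and 99.9 TPM were next. AREG was higher than EREG in each library without overlap of the ranges. EREG had the higher mean CPM, so the order depends on the correction for length. HBEGF at 19.2, 17.8 and 17.6 TPM, BTC at 5.93, 5.34 and 3.1 TPM and TGFA at 6.14, 3.91 and 3.41 TPM were lower, and EGF itself was at 0.13, 0.1 and 0.11 TPM. NRG1, a ligand of ERBB3, was at 38.99, 37.98 and 42.05 TPM. The ligand of MET, HGF, was at 0, 0.02 and 0 TPM, and the ligand of AXL, GAS6, at 13.1, 13.3 and 13.7 TPM. VEGFB and VEGFA, which act on blood vessels, were at 64.8, 67.99 and 71.8 TPM and 57.7, 44.4 and 39.8 TPM, and KITLG was at 53.6, 32.4 and 22.7 TPM, with its highest library 2.36 times its lowest.

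Of the death and cytokine receptors 35 of 57 were expressed, a share near the 65.4% of all genes. TNFRSF12A, the receptor of the cytokine TWEAK, was the highest at 442, 446 and 422 TPM and steady between libraries. TNFRSF10B, a receptor of the death ligand TRAIL, was at 191, 156 and 131 TPM, higher than TNFRSF10A at 27.6, 20.2 and 17.5 TPM and FAS at 30.02, 24.8 and 19.1 TPM. IFNGR2, a chain of the interferon gamma receptor, was at 126, 118 and 112 TPM, LTBR (the lymphotoxin receptor) at 58.6, 53.4 and 53.95 TPM, TNFRSF1A at 53.5, 48.1 and 48.9 TPM and the oncostatin M receptor OSMR at 44.5, 29.3 and 23.7 TPM. TNFRSF6B, a decoy for FAS ligand, was at 28.8, 32.1 and 36.05 TPM; it shares a readthrough transcript with RTEL1, so its level is uncertain. Growth hormone and prolactin receptors, GHR and PRLR, were listed at 0.

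Of the TGF-beta superfamily receptors 8 of 13 were expressed, a share near the 65.4% of all genes. Their median was 3.04 TPM, beside 7.43 TPM for all genes. The list was led by TGFBR2 at 16.8, 11.8 and 10.3 TPM, ACVR1B at 17.1, 11.4 and 9.99 TPM and ACVR1 at 13.1, 10.6 and 9.15 TPM. Of the WNT, NOTCH and hedgehog receptors 16 of 28 were expressed, beside 65.4% of all genes. The WNT co-receptor LRP5 was the highest at 30.1, 25.8 and 25.4 TPM, above LRP6 at 6.95, 3.82 and 2.95 TPM, and the frizzled receptor FZD6 was at 18.1, 10.5 and 9.55 TPM. NOTCH2 at 17.7, 9.17 and 7.69 TPM and its ligands JAG2 at 16.4, 15.3 and 14.8 TPM and JAG1 at 11.9, 7.76 and 6.23 TPM were expressed, while the hedgehog transducer SMO was at 0.11, 0.12 and 0.27 TPM and RNF43, which removes WNT receptors from the membrane, at 0.4, 0.37 and 0.34 TPM.

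Nuclear receptors were expressed in 24 of 44 cases, beside 65.4% of all genes. ESRRA, an orphan receptor that controls mitochondrial genes, was the highest at 103, 95.1 and 89.5 TPM, followed by NR2F1 at 66.99, 66.2 and 63.4 TPM and NR2F2 at 61.9, 48.5 and 44.03 TPM, which are COUP-type orphan receptors. By CPM, which is not scaled to length, NR2F2 was above NR2F1. RXRB at 50.7, 48.1 and 49.3 TPM, the lipid sensor PPARG at 25.7, 23.04 and 23.1 TPM and the retinoic acid receptor RARA at 30.4, 27.8 and 27.4 TPM were also expressed. The glucocorticoid receptor NR3C1 was at 4.11, 2.17 and 1.8 TPM, the estrogen receptor ESR1 at 1.37, 0.64 and 0.5 TPM, and the progesterone receptor PGR was listed at 0.

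Of the G protein-coupled receptors 19 of 59 were expressed, beside 65.4% of all genes. F2RL1, the protease-activated receptor that trypsin cleaves, had the highest mean, at 79.9, 60.2 and 43.9 TPM. Its range overlapped with that of GPRC5A, so the order of F2RL1 and GPRC5A is not resolved. GPRC5A, which retinoic acid induces, was at 71.5, 58.4 and 50.9 TPM, the adenosine receptor ADORA2B at 45.7, 39.6 and 42.8 TPM, and NTSR1, the neurotensin receptor, at 35.9, 35.9 and 37.5 TPM. LPAR2, a lysophosphatidic acid receptor, was at 32.3, 35.8 and 37.3 TPM and higher than LPAR1 at 7.68, 5.83 and 4.71 TPM in each library. P2RY11 was at 19.2, 24.9 and 22.7 TPM, which is uncertain because it overlaps a readthrough transcript with PPAN. The histamine receptor HRH2 and the cholecystokinin receptor CCKAR, both of the stomach wall, were listed at 0.

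Pattern recognition receptors and their adaptors were uneven. Of this list 13 of 31 were expressed, beside 65.4% of all genes. The adaptor kinase RIPK2 at 43.8, 40.2 and 36.2 TPM and TICAM1 at 21.99, 20.1 and 20.8 TPM led it. CGAS, which makes a cyclic dinucleotide on binding DNA, was at 20.3, 17.01 and 11.8 TPM, while STING1, the receptor of that dinucleotide, was at 0.24, 0.22 and 0.15 TPM. MAVS, the adaptor of RNA sensors, was at 16.4, 11.4 and 9.54 TPM, and DDX58, which encodes the sensor RIG-I, at 8.86, 7.03 and 6.29 TPM. The endotoxin receptor TLR4 and the DNA sensor AIM2 were listed at 0.

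Antigen presentation genes were expressed at unequal levels. B2M, the light chain of class I molecules, was at 465, 402 and 379 TPM. Among the heavy chains HLA-C was at 193, 207 and 207 TPM, HLA-B at 158, 161 and 168 TPM and HLA-E at 92.9, 89.9 and 88.7 TPM. None of these 3 ranges overlapped. Because these genes are alike and differ between people, reads that do not match the reference could be lost or shared, and the order between them is uncertain. The class II genes HLA-DRA at 0, 0 and 0.09 TPM and CIITA, their activator, at 0.33, 0.25 and 0.2 TPM were near 0, but CD74, the class II chaperone, was at 28.9, 28.9 and 31.4 TPM. CD274, which encodes PD-L1, was at 17.9, 12.2 and 10.8 TPM, and PDCD1LG2 was at 0, 0 and 0.04 TPM. The stress ligands MICA and MICB were at 41.3, 40.4 and 38.4 TPM and 17.2, 12.6 and 12.3 TPM, and the adhesion receptor ligand ICAM1 was at 179, 153 and 152 TPM.

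Of 30 genes under study as antibody targets 16 were expressed. Beside MET, EPCAM and EGFR these included LY6E at 105, 117 and 125 TPM, CD44 at 134, 109 and 101 TPM and the transferrin receptor TFRC at 118, 79.5 and 70.3 TPM. CLDN18, CEACAM5 at 0, 0 and 0.03 TPM, MSLN at 0.11, 0.14 and 0.04 TPM and FOLR1, listed at 0, were at or near 0.

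Each of the 9 stress lists had a larger share of expressed members than the 65.4% of all genes. This was not particular to stress. The tricarboxylic acid list at 27 of 27, the sterol and ketone list at 25 of 26 and the genes altered in gastric cancer at 33 of 37 also passed it. ATF4 is a transcription factor made when amino acids are short or the kinases of the initiation factor eIF2 are active, and its targets import and make amino acids and charge tRNA. Of that list 35 of 40 were expressed and the median was 101 TPM, beside 7.43 TPM for all genes. ATF4 itself was at 963, 953 and 938 TPM. The amino acid exchanger subunit SLC3A2 was at 856, 912 and 936 TPM, the eIF2 phosphatase subunit PPP1R15A at 683, 659 and 680.3 TPM, and asparagine synthetase, ASNS, at 459.6, 472 and 448 TPM. The mitochondrial folate enzyme MTHFD2 was at 484, 413 and 384 TPM, glycyl-tRNA synthetase GARS1 at 458, 413 and 384 TPM, the glutamine importer SLC1A5 at 394, 399 and 400.4 TPM and PHGDH, the entry enzyme of serine synthesis, at 343, 369.7 and 393 TPM. The feedback genes TRIB3 at 341, 351 and 362 TPM and DDIT3, which encodes CHOP, at 318, 357 and 374 TPM were close in level, as was the secreted stress factor GDF15 at 335, 363 and 355 TPM.

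Not all ATF4 genes were present. STC2 was at 0, 0.05 and 0.02 TPM, VLDLR at 0.02, 0.01 and 0.01 TPM, FGF21 at 0.19, 0.42 and 0.15 TPM and ALDH1L2 at 1.26, 0.67 and 0.54 TPM. CBS, of the transsulfuration pathway, was at 0.12, 0.31 and 0.15 TPM; it has a near-identical copy in the assembly, so that value is uncertain. The importers SLC7A1 at 97.2, 60.4 and 47.6 TPM and SLC7A11 at 74.6, 46.2 and 39.3 TPM had wide spreads, with highest libraries 2.04 and 1.9 times the lowest, whereas ATF4 and SHMT2 at 252, 254 and 256 TPM varied by 1.3% and 0.85%.

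Chaperones of the endoplasmic reticulum were expressed in 25 of 26 cases. The calcium-binding chaperone CALR was at 815, 815 and 791 TPM, the disulfide isomerase P4HB at 755, 796 and 827 TPM, HSPA5, known as BiP, at 473, 411 and 419 TPM, and HSP90B1 at 325, 287 and 269 TPM. The sensors were much lower than the chaperones, with ATF6 at 34.4, 20.9 and 18.04 TPM, ERN1 (IRE1) at 11.6, 6.98 and 5.62 TPM and EIF2AK3 (PERK) at 4.96, 3.45 and 3.18 TPM. ERN2, the gut epithelial form of IRE1, was at 0.07, 0 and 0 TPM. SEL1L, a part of the machinery that removes misfolded proteins, had a highest library 3.04 times its lowest.

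Cytosolic and mitochondrial heat shock proteins were high. HSP90AB1, the constitutive form of HSP90, was at 2369, 2064 and 1910.1 TPM and higher than the inducible HSP90AA1 at 651, 526 and 485 TPM in each library. The mitochondrial chaperonin pair HSPD1 and HSPE1 was at 1982, 1824 and 1700.4 TPM and 1282, 1179 and 1145 TPM, and the constitutive HSPA8 at 1183, 1046 and 977 TPM. HSPA1A and HSPA1B, the inducible HSP70 genes, were at 42.2, 45.5 and 46.7 TPM and 47.6, 42.99 and 44.9 TPM and are near-identical copies, so their split is uncertain. HSPA6, which is strictly inducible by heat, was at 0.35, 0.17 and 0.16 TPM, and the lens and muscle chaperone CRYAB at 0.47, 0.18 and 0.17 TPM.

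Antioxidant genes were expressed in 31 of 37 cases. The ferritin chains FTH1 at 1723, 2039 and 2143 TPM and FTL at 1453, 1638 and 1683 TPM, which store iron, were the highest, followed by the peroxidase PRDX1 at 1319.5, 1412 and 1379 TPM and thioredoxin, TXN, at 1181, 1342 and 1339.7 TPM. PRDX5 was at 808, 945 and 994 TPM and the superoxide dismutase SOD1 at 796, 865 and 793 TPM. NFE2L2, which encodes NRF2, was at 111, 90.5 and 81.5 TPM and its inhibitor KEAP1 at 87.6, 89.9 and 91.9 TPM. Of its classical targets NQO1 was at 117, 116 and 119.9 TPM, TXNRD1 at 516, 342 and 269 TPM and HMOX1 at 79.7, 82.2 and 88.3 TPM, while the aldo-keto reductases AKR1C1 at 0.18, 0.24 and 0.33 TPM and AKR1B10 at 0.08, 0.08 and 0.18 TPM and the gut peroxidase GPX2 at 0.48, 0 and 0 TPM were near 0.

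Of the genes of DNA damage and growth arrest 27 of 28 were expressed. The growth arrest genes GADD45A at 335, 327 and 299 TPM and CDKN1A (p21) at 201, 190.5 and 169 TPM and the apoptosis gene BAX at 143, 174 and 164 TPM were high, and the ubiquitin ligase MDM2 was at 82.95, 52.1 and 40.9 TPM. CDKN2A, which encodes p16 and ARF and is often lost in cell lines, was expressed at 166, 171 and 168 TPM, a coefficient of variation of 1.4%. Its neighbour CDKN2B was at 14.9, 11.5 and 9.28 TPM.

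Hypoxia genes were expressed in 17 of 21 cases at mostly moderate levels. DDIT4, an inhibitor of mTORC1 that ATF4 also controls, was at 232, 219 and 212 TPM, NDRG1 at 136, 117 and 109 TPM and the peptide hormone gene ADM at 49.8, 44.9 and 39.8 TPM. CA9, a classical hypoxia marker, was at 2.21, 2.77 and 2.53 TPM, EGLN3 at 0.68, 0.72 and 0.6 TPM, and BNIP3, a mitophagy receptor, at 0.57, 0.07 and 0 TPM, while its relative BNIP3L was at 39.6, 29.7 and 27.6 TPM. HIF1A was at 55, 31.7 and 21.5 TPM and EPAS1, which encodes HIF2 alpha, at 0.51, 0.29 and 0.25 TPM.

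All 23 immediate-early genes were expressed. Below FOSL1 were IER3, a survival factor, at 422, 415 and 389.9 TPM, the matrix gene CCN1 at 309.6, 268 and 259 TPM, EGR1 at 301, 246 and 223 TPM, JUN at 163, 135 and 129 TPM and MYC at 138, 123 and 117 TPM. FOS at 24.5, 21.6 and 21.5 TPM and FOSB at 16.6, 14.6 and 14.04 TPM were lower than FOSL1 in each library.

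Of the mismatch repair genes, which correct errors of replication, 8 of 9 were expressed, beside 65.4% of all genes. Among the 8 were PMS2 at 31.2, 26.8 and 24.6 TPM and PMS1 at 30.1, 24.2 and 20.98 TPM. MSH6 at 46.05, 36.95 and 30.7 TPM and MSH3 at 12.1, 8.98 and 8.19 TPM were also expressed. MLH3 was at 7.53, 5.7 and 5.61 TPM and PCNA, the sliding clamp of replication, at 424, 400.4 and 376 TPM.

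Of 37 genes recurrently altered in gastric cancer 33 were expressed. RHOA, a small GTPase mutated in diffuse gastric cancer, was the highest at 689, 619 and 566 TPM. CCND1 was at 147, 114 and 100.4 TPM and CCNE1 at 30.3, 28.1 and 27.3 TPM. The tumour suppressors ARID1A at 17.1, 10.6 and 9 TPM, SMAD4 at 13.9, 9.72 and 7.84 TPM and APC at 5.08, 2.71 and 1.95 TPM were expressed at lower levels and were each highest in library 1.

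**Figure D4:**
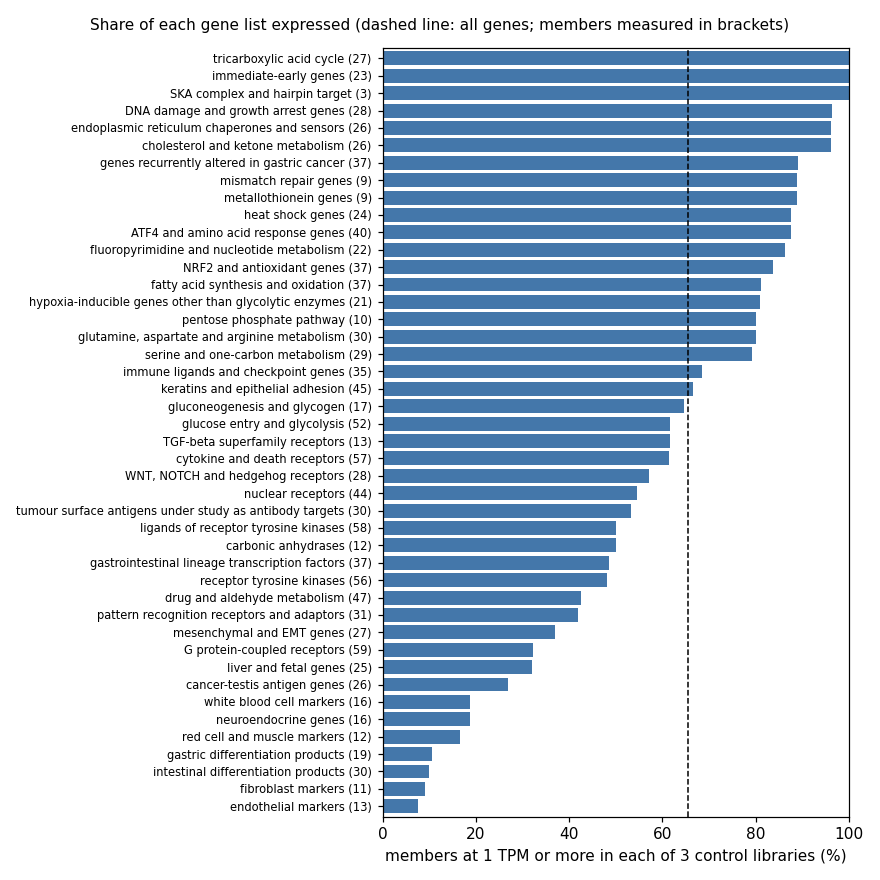
Percentage of the measured members of each of the 44 gene lists that reached 1 TPM in each of the 3 control libraries, with the number measured in brackets and a dashed line at the 65.4% of all genes. The 9 stress lists lie to the right of the dashed line, as do several metabolic lists and the genes recurrently altered in gastric cancer. The lists of other cell types and of gastric and intestinal products lie at the bottom.

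Several glycolytic enzymes were abundant, although the share of the glucose list that was expressed, 32 of 52, was near the 65.4% of all genes. Of this list 11 genes had a mean of at least 100 TPM. Below GAPDH and ENO1 came pyruvate kinase PKM at 2089, 2052 and 2109.8 TPM, triose phosphate isomerase TPI1 at 1144, 1233 and 1248 TPM and aldolase ALDOA at 1084, 1199 and 1269.8 TPM. Hexokinase HK1 at 101, 84.9 and 80.2 TPM was higher than HK2 at 32.1, 20.9 and 18.8 TPM in each library, and HKDC1 was at 2.99, 2.34 and 2.02 TPM. Among phosphofructokinases PFKP was at 112, 98.3 and 104 TPM, PFKL at 90.8, 90.8 and 96.1 TPM and PFKM at 94.2, 75.9 and 71.6 TPM, and the order changed with the scale, since PFKL was the highest by CPM. The brain aldolase ALDOC was at 14.6, 17.8 and 18.9 TPM. ENO2 and ENO3 were far below ENO1, with ENO3 at 9.31, 9.59 and 8.29 TPM. PKLR, the liver and red cell pyruvate kinase, was listed at 0.

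Lactate dehydrogenase was led by LDHB, the heart form, at 1692, 1733 and 1677 TPM, with LDHA, the muscle form, at 1083, 969 and 913 TPM. LDHB was higher per length in each library, but LDHA had the higher CPM, so the order depends on the correction for length. LDHB lies on chromosome 12 from 21635342 to 21757857. The lactate exporter SLC16A3 was at 85.5, 88.9 and 90.8 TPM and SLC16A1 at 88.1, 56.7 and 45.8 TPM, and their ranges overlapped. The glucose transporter SLC2A1 was at 27.1, 25.5 and 24.3 TPM and SLC2A3 at 13.6, 11.3 and 9.05 TPM.

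Of the genes of gluconeogenesis and glycogen 11 of 17 were expressed, a share near the 65.4% of all genes. The mitochondrial phosphoenolpyruvate carboxykinase PCK2 was at 109, 105 and 99.6 TPM, and the cytosolic PCK1 was listed at 0. FBP1, a fructose bisphosphatase, was at 0.6, 0.35 and 0.32 TPM, and PC, which makes oxaloacetate, at 5.37, 5.4 and 5.26 TPM. Glycogen phosphorylase was present in its brain form PYGB at 86.4, 75.6 and 74.9 TPM and its liver form PYGL at 54.6, 49.7 and 48.9 TPM, with the muscle form PYGM at 0.48, 0.24 and 0.29 TPM.

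In the pentose phosphate pathway the transaldolase TALDO1 was at 439, 509 and 518 TPM, PGD at 287, 278 and 260.1 TPM and the transketolase TKT at 254, 253 and 251 TPM. Every measured gene of the tricarboxylic acid list, 27 of 27, was expressed with a mean of at least 10 TPM. Malate dehydrogenases MDH1 at 333, 313 and 281 TPM and MDH2 at 219, 242 and 247 TPM and the succinate dehydrogenase subunits SDHB at 264, 261 and 262 TPM and SDHA at 247, 224 and 226 TPM were at its top, with citrate synthase CS at 275, 215 and 191 TPM. IDH2, the mitochondrial isocitrate dehydrogenase, was at 63, 66.7 and 66.5 TPM and the cytosolic IDH1 at 68.2, 55.1 and 48.6 TPM, with ranges that overlapped.

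Amino acid metabolism was led by polyamine and asparagine synthesis. ODC1, the entry enzyme of polyamine synthesis, was at 898, 777 and 696 TPM, spermine synthase SMS at 336, 298 and 264 TPM and spermidine synthase SRM at 126, 140.1 and 136 TPM. The aspartate aminotransferases GOT1 and GOT2 were at 269, 258 and 260.1 TPM and 209, 194 and 181 TPM, and proline synthesis was led by PYCR1 at 233, 249 and 245 TPM. Argininosuccinate synthase ASS1 was at 14.3, 13.7 and 14.1 TPM, and the urea cycle genes OTC and ARG1 were listed at 0.

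Serine and folate enzymes overlapped with the ATF4 list. Beside PHGDH and MTHFD2, PSAT1 was at 425, 351 and 290.2 TPM and PSPH at 81.6, 78.8 and 78.6 TPM, which complete serine synthesis. The mitochondrial SHMT2 was higher than the cytosolic SHMT1 at 47.5, 41.7 and 39.8 TPM in each library. AHCY, which clears S-adenosylhomocysteine, was at 454, 402 and 413 TPM, MAT2A, which makes S-adenosylmethionine, at 156, 121 and 101 TPM, and MTAP, the methylthioadenosine phosphorylase near CDKN2A, at 199, 143 and 119 TPM. GLDC, of the glycine cleavage system, was at 1.54, 1.39 and 1.43 TPM.

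**Figure D5:**
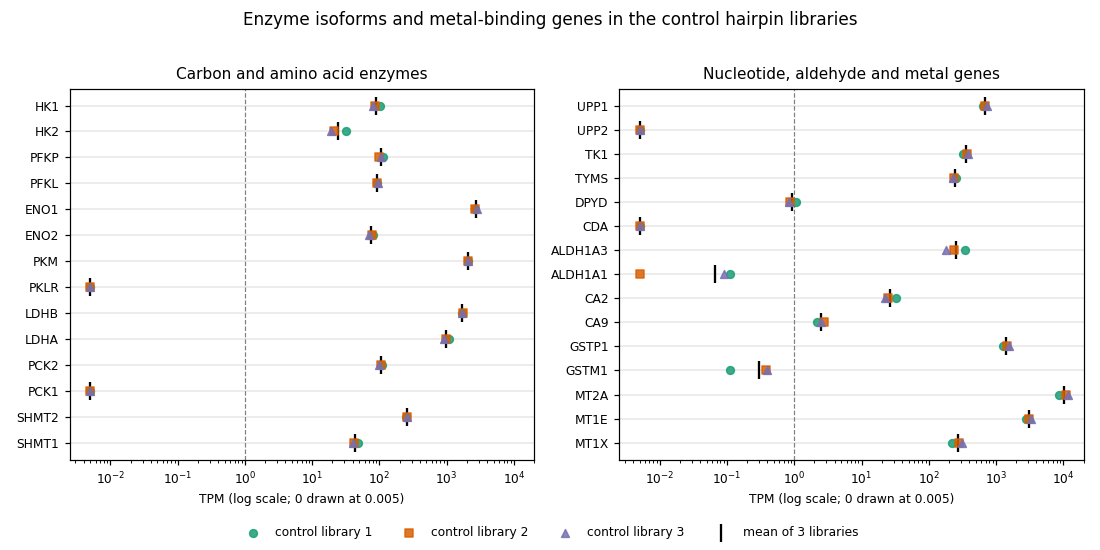
TPM of enzyme isoforms and metal-binding genes on a log axis, with libraries 1 to 3 as circle, square and triangle, the mean as a vertical bar and values listed at 0 drawn at 0.005. HK1, PCK2 and SHMT2 lie to the right of HK2, PCK1 and SHMT1.

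Lipid genes were expressed in 30 of 37 cases for fatty acids and 25 of 26 for sterols and ketones. FABP5, an intracellular fatty acid carrier, was at 481, 504 and 519 TPM, the oxidation enzymes ACADVL at 278, 276 and 277 TPM and HADHA at 200.4, 192 and 183 TPM, and the synthesis enzymes FASN at 167, 126 and 127 TPM and ACLY at 178, 123 and 102 TPM. CPT1A at 25.6, 19.5 and 17.1 TPM and CPT1B at 20.4, 20.97 and 23.3 TPM, which carry fatty acids into mitochondria, overlapped, and CPT1B shares a readthrough transcript with CHKB, so its level is uncertain. ELOVL5, an elongase of polyunsaturated fatty acids, was listed at 0, and PLIN2, which coats lipid droplets, was at 0.22, 0.33 and 0.15 TPM. In sterol synthesis FDPS was at 250.5, 255 and 257 TPM and FDFT1 at 129, 117 and 114 TPM, and ACAT1, an enzyme of ketone metabolism, was at 325, 317 and 293 TPM.

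Of the drug-metabolising genes 20 of 47 were expressed, beside 65.4% of all genes. GSTP1, a glutathione transferase of tumours, was at 1261, 1439 and 1539.5 TPM, MGST1 at 181, 203 and 193 TPM and GSTM3 at 14.5, 15.9 and 17.5 TPM, with GSTM1 at 0.11, 0.38 and 0.4 TPM. Among aldehyde dehydrogenases ALDH1A3, which makes retinoic acid, was at 348, 238 and 183 TPM, while ALDH1A1 at 0.11, 0 and 0.09 TPM and ALDH1A2 at 0.04, 0 and 0 TPM were near 0. ALDH1A3 was highest in library 1, 1.9 times library 3, and its mean was 210.4 TPM over libraries 2 and 3. The cytochromes were low, with CYP24A1 at 13.5, 9.18 and 7.17 TPM and CYP2S1 at 6.67, 7.32 and 7.57 TPM, and CYP3A4 at 0.04, 0 and 0.03 TPM. The drug exporter ABCB1 was listed at 0, and ABCC1 was at 30.9, 23.6 and 22.5 TPM.

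Genes that handle fluoropyrimidines, drugs used in gastric cancer, were expressed in 19 of 22 cases. Uridine phosphorylase UPP1, on chromosome 7 from 48088628 to 48108733, was the highest at 630.5, 692 and 734 TPM, and UPP2 was listed at 0. Thymidine kinase TK1 was at 319.9, 367 and 378 TPM, and TYMS, the target of fluorouracil, at 256, 239 and 230.4 TPM. DPYD, which degrades fluorouracil, was at 1.06, 0.86 and 0.84 TPM, and the cytidine deaminase CDA was listed at 0. Thymidine phosphorylase TYMP was at 12.8, 14.2 and 16.5 TPM and UMPS, an activating enzyme, at 17.9, 15.8 and 16.2 TPM.

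Of the carbonic anhydrases 6 of 12 were expressed, beside 65.4% of all genes. CA2 was higher than all others, and CA13 was next at 9.38, 5.96 and 5.08 TPM. CA11 followed with a mean of 4.41 TPM. CA9 and CA12 were lower, at 2.21, 2.77 and 2.53 TPM and 2.71, 2.49 and 2.05 TPM.

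The genes with the widest spread between the control libraries fell into 2 kinds. The first kind was lowest in library 1, for SULT1A4 together with library 2, and several of its genes have close copies or shared transcripts. SULT1A4 was at 0, 0 and 20.8 TPM, and it is a near-identical copy of SULT1A3. U2AF1L5, a copy of U2AF1, was at 1.54, 7.87 and 29.4 TPM, and EIF3CL, a copy of EIF3C, at 3.12, 22.7 and 30.04 TPM. EIF4EBP3, which shares a readthrough transcript with ANKHD1, was at 1.91, 8.03 and 13.5 TPM. The values of these 4 genes can move with how ambiguous reads are shared, and they are uncertain. H4C11, a histone gene whose messenger RNA normally lacks a poly(A) tail, was at 0, 10.4 and 10.9 TPM with 0, 14 and 16 expected counts. MCAM, a cell adhesion molecule, was at 1.26, 6 and 8.42 TPM with 69.5, 380.4 and 580.4 expected counts, although its effective length was 5680 bases.

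The second kind was high in library 1. Its effective lengths ran from 2417 bases for CCNE2, which lies in the middle of the 5 length bins, to 10888 for CBL. NCR3LG1, a ligand of natural killer cells, was at 15.5, 3.77 and 2.19 TPM, the cyclin CCNE2 at 12.1, 5.2 and 3.14 TPM and the zinc finger gene ZNF66 at 46.3, 17.5 and 12.4 TPM. ROCK2, a kinase of the cytoskeleton, was at 14.01, 7.31 and 3.85 TPM, the ubiquitin ligases RNF169 at 16.9, 7.83 and 4.79 TPM and CBL, which acts on MET and EGFR, at 29.5, 13.3 and 8.38 TPM. The ratio of the highest to the lowest library was 3.52 for CBL and 7.09 for NCR3LG1. For CBL the spread was a coefficient of variation of 64.7%, against 2.27% from counting alone.

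The order of members was examined in 48 gene families, which were chosen after the values were seen. The highest member was above the next in all 3 libraries in 44 families, and the ranges did not overlap in 41. By CPM the highest member was the same in 40 of 48. The 8 that changed were the phosphofructokinases, the lactate dehydrogenases, the lactate transporters, the isocitrate dehydrogenases, the carnitine palmitoyltransferases, the glutathione peroxidases, the EGF-like ligands and the COUP-type receptors.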

How the data were processed

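Trizol-extracted RNA was selected for poly(A) tails, broken into fragments and reverse transcribed from random primers, per the labels' protocols. No step that marks the strand is named, so it is not known whether reads of genes that overlap on opposite strands could be told apart. HISAT, Bowtie2, RSEM, DESeq2 and build GRCh38.p13 are named in the submitters' processing notes, with no role, order or version.

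The authors deposited, for each library, expected counts (estimated reads per gene, to at most 2 decimals), FPKM values and TPM values, as the columns are named per the file headers. FPKM corrects for length and reads, and TPM also gives each library the same total. A further 15 columns of group averages were not used.

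Levels, ranks and spreads were computed in Python 3.11.15 with pandas 2.3.3. Expressed meant at least 1 TPM in each control library. Effective length was taken from the deposited count and FPKM. Expected counts were rounded to whole numbers for the biological coefficient of variation, which edgeR 4.0.16 estimated with TMM scaling and an expression filter, and for DESeq2 1.42.0 size factors. The scripts were tested on simulated data. Of 1266 genes in 44 lists, 1169 were measured. The other genes of the lists were not analysed here. Apart from the level of SKA2, which checks the labels, groups are not compared, and no p-value is given.

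Named genes were SKA1, SKA2 and SKA3, the 20 highest by mean TPM, up to 8 highest members of each list with defining members at or near 0, all expressed receptor tyrosine kinases, isoforms of an enzyme, the 12 widest spreads among genes with a mean of at least 5 TPM and the 3 widest of a list. Members outside this rule were named after their values were seen. The lists and the rule were chosen with earlier results of these data known, and the 48 families after the values were seen. Some genes that the rule names are not reported here. Gene positions are from GENCODE v29.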

Additional observations from a re-analysis of the deposited data

How the results depend on the processing

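The number of expressed genes, 11316, lay between 9060 (5 TPM in each library) and 11872 (0.5 TPM) under every alternative run. Counts in place of TPM put the share of the 100 highest genes at 20.4%, and leaving out a library gave 38.5% to 41.1%. The 3868 genes past 1.5 times became 2250 with TMM-scaled CPM, 2257 with DESeq2 size factors, 1008 at a ratio of 2, and 1100 once length-bin medians were removed (added after seeing the data). Leaving out a library gave 288 to 3732, with 288 without library 1 and 1860 without library 3. The biological coefficient of variation was 0.0692 to 0.202 with a library left out. The length trend, the gap between libraries in the change from shortest to longest bin, was 0.88 log2 units, 0.26 to 0.88 with a library left out, and the smallest chi-square per degree of freedom of a pair was 6.50, 6.50 to 49.7 with a library left out, and 5.17 in the middle length bin and 7.41 for genes with at least 100 reads (both added after seeing the data). Of 44 lists, the count of expressed members moved by over 1.5 times in 10 at 5 TPM, in 2 at 0.5 TPM, in 1 without library 3 and in 0 without library 1. Of 833 gene means of at least 1 TPM, 0 moved by over 1 SD with FPKM after TMM scaling. With a library left out a mean of 3 cannot move that far, so that count says nothing about stability. Members with a mean of a few TPM can rest on few reads when they are short. No paired analysis was possible because 1 group is described and no groups are compared.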
